A study of Mus musculus with 7 samples.

Results

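Erythroid cells, the haemoglobin-filled cells of the red blood cell line, were examined in single-cell libraries of mouse aorta. A cell counted as erythroid when at least 200 genes were detected in it, at most 25% of its UMIs (unique molecular identifiers, each standing for 1 captured RNA molecule) came from mitochondrially encoded genes, and the UMIs of Hba-a1, Hba-a2, Hbb-bs and Hbb-bt together made up at least 20% of its total. This rule found 258 cells, or 0.376% of the 68662 cells that passed the same gene and mitochondrial limits, out of 76359 cell barcodes deposited. The other 68404 passing cells are called other cells here.

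The aortas came from 4 Slc38a2deltaEC libraries (KO 1 to KO 4), in which the amino acid transporter gene Slc38a2 was deleted in endothelial cells, and from 3 Slc38a2flox/flox libraries (flox 1 to flox 3), which carry the floxed allele. All mice, controls included, had eaten a high-salt diet for 3 weeks. Library numbers follow the sample names. The sources used here give no Cre driver, age or number of mice per library. A cell type label naming goblet cells was not used, since it goes against the stated tissue. The tissue was rinsed in saline, digested with enzymes and captured on the BD Rhapsody system, and the labels mention no lysis of red cells.

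Red blood cells arise from nucleated precursors in bone marrow and spleen. The last precursor expels its nucleus and becomes a reticulocyte, which still holds RNA, enters the blood, and clears its mitochondria and ribosomes as it becomes a mature red cell with little RNA left. Haemoglobin is a tetramer of alpha and beta chains with haem, and Alas2, the erythroid form of the first and rate-limiting enzyme of haem synthesis, is a standard marker of the line. The aorta is not a known site of red cell formation in adult mice.

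The 4 genes that define the cells are near-identical pairs, and their sequences show which pairs reads can tell apart. In GENCODE vM21 transcripts (GRCm38), the coding sequences of Hba-a1 and Hba-a2 are 429 bases each and differ at 1 base, C381T from Hba-a1 to Hba-a2, counted from the A of the start codon. Hbb-bs and Hbb-bt have coding sequences of 444 bases that also differ at 1 base, C417T from Hbb-bs to Hbb-bt. Bases 361 to 401 of both alpha genes (chromosome 11, plus strand) and bases 397 to 437 of both beta genes (chromosome 7, minus strand) are printed with the differing base in capitals.
Hba-a1: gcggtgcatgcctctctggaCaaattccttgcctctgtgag
Hba-a2: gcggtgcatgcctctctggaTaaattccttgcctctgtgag
Hbb-bs: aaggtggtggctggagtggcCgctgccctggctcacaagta
Hbb-bt: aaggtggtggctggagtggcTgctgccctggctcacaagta

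After the stop codon, the whole 74 bases of the annotated Hba-a1 transcript also occur in Hba-a2. The tails of Hbb-bs and Hbb-bt, of 131 and 132 bases, share no run longer than 8 bases. The sources used here do not say how reads that match both copies were counted, so the split between Hba-a1 and Hba-a2 is uncertain, while the tails of Hbb-bs and Hbb-bt can be told apart.

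The stretch of 150 bases before each start site (RefSeq, GRCm38.p6) is printed for the 5 marker genes, since the alpha pair is duplicated there as well. Capitals mark the CACCC box, the CCAAT box, the TATAA box and the GATAA motif. Each was searched on both strands, so the CACCC box can also read GGGTG, the CCAAT box ATTGG, the TATAA box TTATA and the GATAA motif TTATC. No match overlapped another. The Hba-a1 and Hba-a2 stretches share a run of 147 bases, whereas the longest run shared by Hbb-bs and Hbb-bt is 14 bases. The stretches lie at chr11:32283522-32283671 (plus strand, Hba-a1), chr11:32296342-32296491 (plus strand, Hba-a2), chr7:103827929-103828078 (minus strand, Hbb-bs), chr7:103813924-103814073 (minus strand, Hbb-bt) and chrX:150547267-150547416 (plus strand, Alas2). RefSeq and GENCODE vM21 differ on some of these starts. The GENCODE transcript of Hba-a1 begins at base 32283511, ahead of the whole Hba-a1 stretch, and that of Hbb-bt at base 103813996, within its stretch.
Hba-a1: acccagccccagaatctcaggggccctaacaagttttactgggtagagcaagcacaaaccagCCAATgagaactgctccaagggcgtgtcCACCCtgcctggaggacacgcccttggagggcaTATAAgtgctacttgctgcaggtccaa
Hba-a2: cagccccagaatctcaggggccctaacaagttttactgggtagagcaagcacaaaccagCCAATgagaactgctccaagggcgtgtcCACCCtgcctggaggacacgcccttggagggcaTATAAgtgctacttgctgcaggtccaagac
Hbb-bs: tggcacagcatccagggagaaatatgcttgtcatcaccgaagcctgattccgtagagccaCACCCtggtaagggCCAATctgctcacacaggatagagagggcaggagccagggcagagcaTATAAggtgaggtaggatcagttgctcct
Hbb-bt: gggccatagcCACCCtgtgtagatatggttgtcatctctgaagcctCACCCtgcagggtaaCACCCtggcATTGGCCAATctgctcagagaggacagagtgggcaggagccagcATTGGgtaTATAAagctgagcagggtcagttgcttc
Alas2: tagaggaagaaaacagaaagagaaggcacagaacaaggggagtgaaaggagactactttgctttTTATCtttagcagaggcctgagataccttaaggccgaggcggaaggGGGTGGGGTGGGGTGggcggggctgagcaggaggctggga

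All 4 globin stretches held the CACCC box, the CCAAT box and the TATAA box together, which 1.1% of the 32851 RefSeq promoters of the same length do. Singly, the CACCC box was present in 37.4% of those promoters, the CCAAT box in 24.5%, the TATAA box in 14.2% and the GATAA motif in 13.3%. Alas2 held the CACCC box and the GATAA motif. These matches are a description of the letters in these stretches.

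The libraries held 22646246 to 73102988 UMIs in 6167 to 13792 barcodes, and each deposited barcode had at least 500 UMIs. Pairs of libraries shared 68 to 218 barcode sequences, and no erythroid barcode was among them. The erythroid cells numbered 22 in KO 1, 25 in KO 2, 4 in KO 3 and 133 in KO 4, against 31 in flox 1, 21 in flox 2 and 22 in flox 3. KO 4 therefore held 51.6% of them and stood apart from the other 6 libraries, and KO 3 held too few for most library values. As a share of passing cells, with exact Clopper-Pearson 95% intervals that cover counting error only, they made up 0.217% (0.136% to 0.329%) in KO 1, 0.246% (0.16% to 0.364%) in KO 2, 0.0325% (0.00886% to 0.0832%) in KO 3 and 1.82% (1.53% to 2.16%) in KO 4. The shares in the controls were 0.262% (0.178% to 0.372%) in flox 1, 0.183% (0.114% to 0.28%) in flox 2 and 0.398% (0.25% to 0.602%) in flox 3. The KO libraries gave both the lowest and the highest share, and the 3 flox libraries lay between them.

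**Figure D1:**
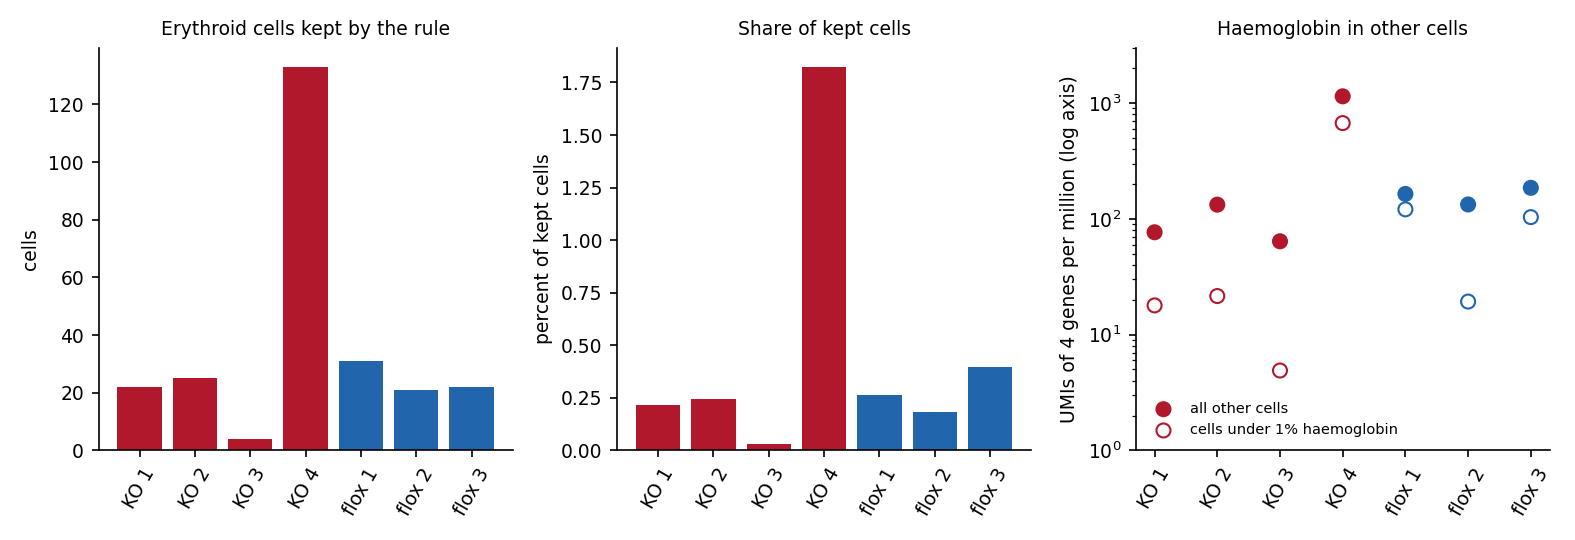
The bars give the number of erythroid cells (left) and their percent of passing cells (middle) in each KO and flox library. The right panel gives haemoglobin UMIs per 1000000 UMIs in other cells on a log axis, for all other cells and for those under 1% haemoglobin. KO 4 is highest in all panels, with 133 erythroid cells and 1142 UMIs per 1000000.

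The rule's limit of 200 genes left out most haemoglobin-rich barcodes. A further 1075 barcodes had at least 20% haemoglobin and fewer than 200 genes, and 1 more exceeded the mitochondrial limit, so the rule kept 258 of 1334. These low-gene barcodes numbered 137, 143, 25 and 538 in KO 1 to KO 4, against 32, 119 and 81 in flox 1 to flox 3. In KO 4 they were 95.2% of all barcodes under 200 genes, and in the other 6 libraries between 3.36% and 48.2%. Alas2 was detected in 1017 of the 1075 (94.6%). They carried 67.7% to 81.2% of a library's haemoglobin UMIs in the 4 KO libraries, against 34.9%, 77% and 66.3% in flox 1 to flox 3.

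The erythroid cells had a median of 3180 UMIs but 287 genes, and haemoglobin made up a median of 79.6% of their UMIs (lowest 20%, highest 94.3%). A median of 557.5 UMIs per cell was left for all other genes. Mitochondrially encoded genes took a median of 0.722% of all UMIs, against medians of 4.22% to 7.53% among the other cells of a library. Haemoglobin UMIs count in this total, so the share set by the rule lowers the mitochondrial percent of erythroid cells. Per 1000000 non-haemoglobin UMIs, these genes averaged 63960 ± 17190 in erythroid cells and 72850 ± 10740 in other cells (SD, n = 6). The 6 libraries were those with at least 20 erythroid cells. With every cell thinned to 500 UMIs, the median number of genes was 70 to 122 in erythroid cells, against 361 to 379 in 500 sampled other cells of each of the 7 libraries. Haemoglobin UMIs were kept in this thinning, so the share set by the rule lowers the gene number of erythroid cells. Unthinned medians were 246 to 322 genes in erythroid cells and 1428 to 2135 in other cells.

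Alas2, which the rule did not count but which marks these cells, was detected in 253 of the 258 cells (98.1%), against 156 other cells (0.228%). By this marker the cells hold red cell RNA. Summed over libraries, Alas2 had 4.95 UMIs per 1000 haemoglobin UMIs in erythroid cells at 50% haemoglobin or more. It had 4.64 in those at 20% to 50%, 4.01 in other cells at 1% to 20% and 3.65 in other cells under 1%. In these sums Alas2 thus followed haemoglobin RNA, and it does not tell a red cell from another cell holding such RNA. Of the 5 cells just inside the limit, haemoglobin was 20% to 21.1% of UMIs, and of the 5 just outside it was 18.2% to 19.2%. Most of these 10 cells were assigned to fibroblasts by their other markers.

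The cells fell along a range of haemoglobin shares, and 204 of them were at 50% or more. Those 204 had a median of 262.5 genes, 474 non-haemoglobin UMIs and 0.586% mitochondrial UMIs. The 54 cells between 20% and 50% had a median of 1470 genes, 3100 non-haemoglobin UMIs and 4.7% mitochondrial UMIs. Per 1000000 non-haemoglobin UMIs, mitochondrially encoded genes had 52910 in the summed 204 cells and 77240 in the summed 54. At least 3 markers of some other cell type (from 12 lists) were detected in 52 of these 54 cells, 40 of them for fibroblasts, and in 103 of the 204 cells at 50% or more, 98 of them for fibroblasts. No neutrophil marker was detected, with 0 of 312533 non-haemoglobin UMIs, which allows up to 9.6 UMIs per 1000000 (3 counts, counting error only), and the platelet and megakaryocyte list had 8 UMIs. The doublet caller Scrublet marked 2 erythroid cells, both in KO 4. Whether a barcode at 20% to 50% held 1 cell, or a red cell and another cell together, was not tested.

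**Figure D2:**
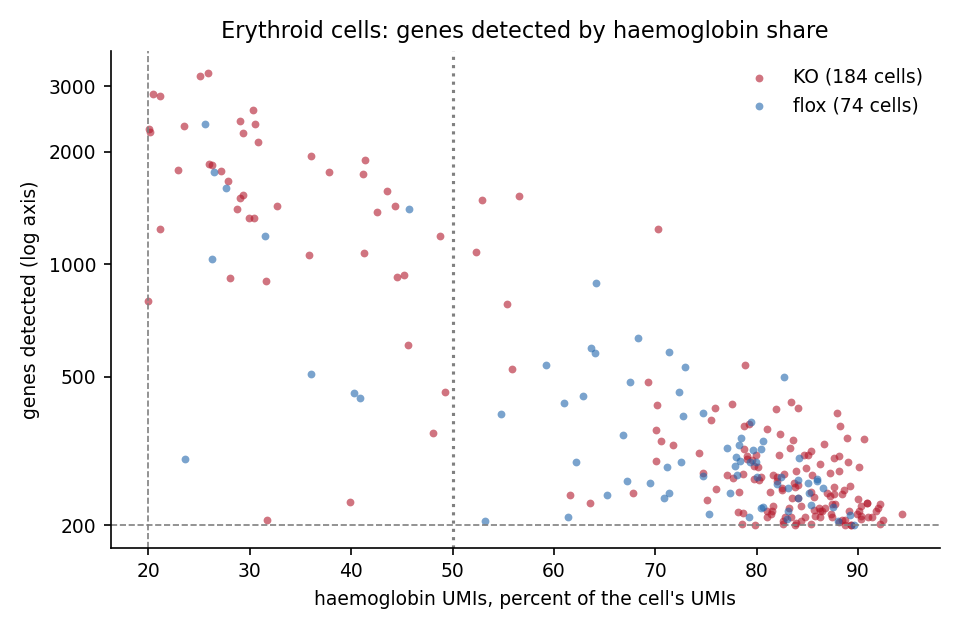
Each point is an erythroid cell of a KO or a flox library, with haemoglobin's percent of its UMIs on the x axis and genes detected on a log y axis. Dashed lines mark the rule's limits of 20% and 200 genes, and the dotted line marks 50%. Cells under 50% have a median of 1470 genes and those at 50% or more a median of 262.5.

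The transcripts other than haemoglobin are given as counts per 1000000 non-haemoglobin UMIs (CPM) of the summed erythroid cells or other cells of a library, with means and SDs over the 6 libraries that had at least 20 erythroid cells (KO 3 is left out of them). Ratios are log2 values with 10 CPM added on both sides. Erythroid cells were chosen on haemoglobin in the same cells, so these levels and ratios are descriptions without a test. The cells at 20% to 50% entered the sums with a median of 3100 non-haemoglobin UMIs, against 474 at 50% or more. The level of a library thus also depends on how many of its cells lay at 20% to 50%, which were 7 of 22 in KO 1. Among 1067 genes with at least 50 UMIs in erythroid cells, 108 (10.1%) had a log2 ratio over 2, 18 were under -2, and the median was -0.46. This share is given beside the counts of the gene lists. The limit of 50 UMIs was counted in erythroid cells alone, so a gene rare in other cells that reaches it mostly has a high ratio. The lists were also chosen with earlier results of these data known, so their counts describe the cells and test nothing.

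Haem synthesis was led by Alas2. Its level was 4959, 8026, 6159 and 9984 CPM in erythroid cells of KO 1 to KO 4, against 15470, 8315 and 16580 in those of flox 1 to flox 3. It averaged 10560 ± 4551 CPM in erythroid cells and 1.14 ± 1.41 in other cells (SD, n = 6), a log2 ratio of 9.78. The KO and flox values overlapped.

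Slc25a37, mitoferrin, which brings iron into mitochondria, averaged 5531 ± 2362 CPM in erythroid cells and 17.7 ± 1.68 in other cells (SD, n = 6). Fech, which inserts iron into the porphyrin ring as the last step of haem synthesis, averaged 4405 ± 2230 in erythroid cells and 53 ± 5.82 in other cells. Slc25a39, a mitochondrial glutathione carrier, averaged 2180 ± 944 in erythroid cells and 55.9 ± 9.32 in other cells. Each of the 3 exceeded its level in other cells in all 6 libraries.

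Of the 16 genes on the haem synthesis and iron import list, 5 reached 50 UMIs in erythroid cells and all 5 had a log2 ratio over 2, the fifth being Urod, uroporphyrinogen decarboxylase, at 2.26. The middle steps were thinly covered, since Alad had 4 UMIs, Uros 4, Cpox 24 and Ppox 3. Tfrc, the transferrin receptor by which precursors take up iron, had 32 UMIs in 6.59% of cells and averaged 77.5 ± 61.7 CPM in erythroid cells, against 32.3 ± 8.38 in other cells. Mature red cells no longer carry the transferrin receptor.

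Genes of the red cell membrane and its skeleton came next. Of 24 genes on that list, 9 reached 50 UMIs and 7 of these had a log2 ratio over 2. Epb41, protein 4.1, which ties the membrane to its skeleton, averaged 4808 ± 1886 CPM in erythroid cells and 23.7 ± 4.04 in other cells (SD, n = 6). Cd24a, a surface glycoprotein of erythroid precursors and of several leukocytes, averaged 3796 ± 1693 in erythroid cells and 26.7 ± 13.6 in other cells.

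Slc4a1, the band 3 anion exchanger, stood at 162, 2508, 154 and 1118 CPM in erythroid cells of KO 1 to KO 4, against 1079, 1352 and 2240 in those of flox 1 to flox 3. KO 1 was the lowest of the 6 larger libraries, and the KO and flox values overlapped. Summed over all libraries, Slc4a1 was at 2853 CPM in the cells of 50% or more and at 99.7 in those of 20% to 50%. KO 1 held 7 cells of 20% to 50%, and their part in its low level was not tested. In the cells at 50% or more alone, Slc4a1 had 0.182 UMIs per 1000 haemoglobin UMIs in KO 1. It had 1.87 in KO 2 and 0.57 in KO 4, and 0.387, 1.19 and 0.739 in flox 1 to flox 3. In other cells Slc4a1 averaged 0.0927 ± 0.0933 CPM (SD, n = 6), so it was almost absent outside erythroid cells. Kel, the Kell blood group protein, had a log2 ratio of 5.65. Bsg, basigin, which many cell types carry, had a ratio of 0.41.

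Reticulocyte maturation was the list with most members of at least 50 UMIs and a log2 ratio over 2. Of its 22 genes in the files, 16 reached 50 UMIs, and all 16 had a log2 ratio over 2. Tent5c, a poly(A) polymerase that lengthens the tails of messenger RNAs, averaged 10260 ± 3958 CPM in erythroid cells and 71.3 ± 14.3 in other cells (SD, n = 6). Ube2l6, a ubiquitin and ISG15 conjugating enzyme, averaged 6533 ± 1311 in erythroid cells and 47.8 ± 15.4 in other cells. Mkrn1, a ubiquitin ligase, averaged 5610 ± 2137 in erythroid cells and 37.6 ± 4.79 in other cells. Ube2o, which tags ribosomal proteins for destruction in mouse reticulocytes, had a log2 ratio of 5.83, Isg20, an exonuclease, of 6.37, and Bnip3l, the receptor that marks mitochondria for removal in reticulocytes, of 4.82. Each of these 6 maturation genes was above its level in other cells in all 6 libraries.

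Red cell metabolism was represented by 10 genes with at least 50 UMIs out of 14 listed, and 8 of the 10 had a log2 ratio over 2. Car2, carbonic anhydrase 2, which interconverts carbon dioxide and bicarbonate, stood at 1228, 6722, 6159 and 4352 CPM in erythroid cells of KO 1 to KO 4, against 3648, 6021 and 9503 in those of flox 1 to flox 3. It averaged 0.811 ± 1.11 in other cells, a log2 ratio of 8.69, although it was detected in 53.5% of erythroid cells. Bpgm, which makes the 2,3-bisphosphoglycerate that lowers the oxygen affinity of haemoglobin, averaged 3882 ± 1254 in erythroid cells and 10.1 ± 1.38 in other cells. The antioxidant enzymes Gpx1, Cat and Prdx2 had log2 ratios of 4.0, 3.84 and 3.46.

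**Figure D3:**
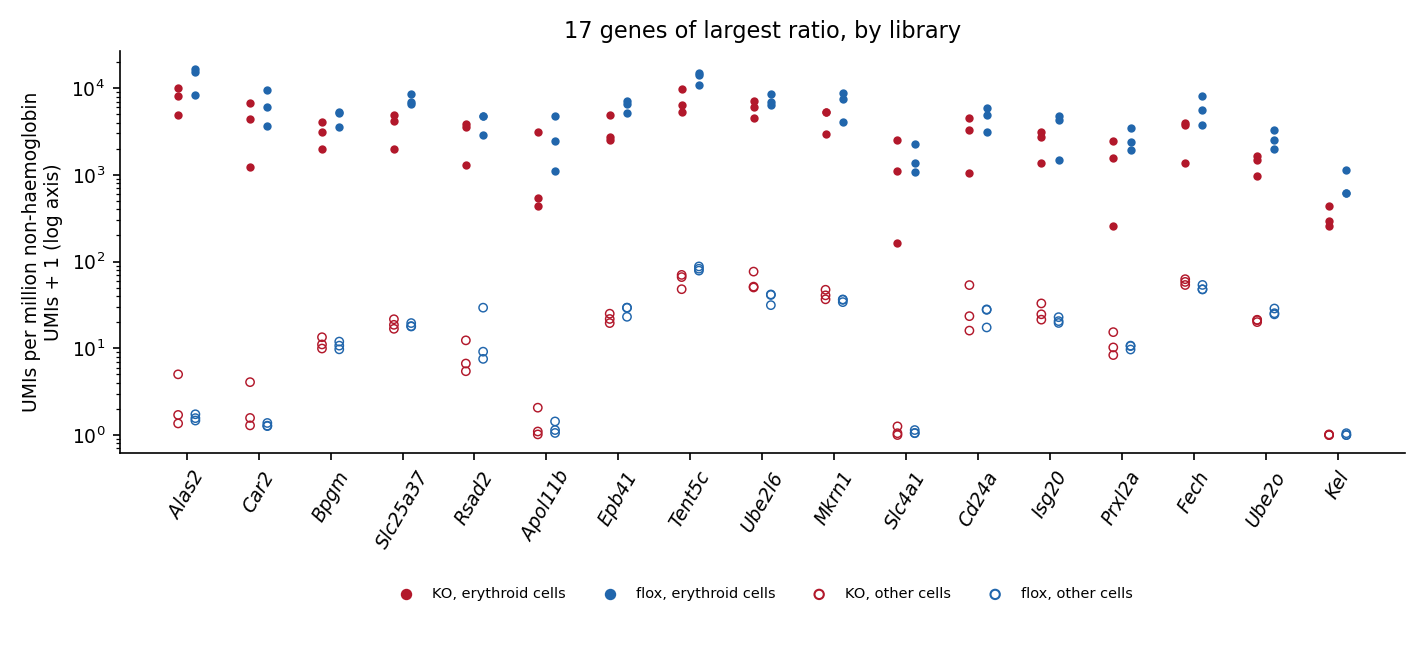
Levels of 17 of the 20 genes with the largest ratio, as CPM of non-haemoglobin UMIs plus 1 on a log axis, in the 6 libraries with at least 20 erythroid cells. Filled points are erythroid cells and open points other cells, with KO left of flox for each gene. Alas2 averages 10560 CPM in erythroid cells and 1.14 in other cells.

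Some of the 20 genes with the largest ratio belonged to none of these lists. Rsad2, viperin, an interferon-inducible antiviral enzyme, averaged 3529 ± 1319 CPM in erythroid cells and 10.8 ± 8.97 in other cells (SD, n = 6). Apol11b, of the apolipoprotein L family, stood at 533, 435, 0 and 3158 in erythroid cells of KO 1 to KO 4, against 2466, 1106 and 4782 in those of flox 1 to flox 3. It was detected in 40.3% of cells. Prxl2a, a peroxiredoxin-like protein, had a log2 ratio of 6.34.

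The non-haemoglobin gene with most UMIs was Pabpc1, the poly(A)-binding protein, with 4008 UMIs and a mean of 15670 ± 8939 CPM in erythroid cells, against 774 ± 57.7 in other cells. Tpt1 and Ubb, which most cells transcribe, had log2 ratios of 0.58 and 1.43. Dcn, decorin, a fibroblast product, was also among the 10 genes with most UMIs, with 1974, although its ratio was -1.23. It was at 1828 CPM in the summed cells of 50% or more and at 9188 in those of 20% to 50%.

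Transcripts of earlier precursors were scarce. Klf1, a transcription factor that activates the adult beta globin genes, had 0 UMIs in the 258 cells, which allows up to 9.6 CPM. Gata1, which drives erythroid genes in precursors, had 5 UMIs, Epor, the erythropoietin receptor, had 2, and Tal1 had 8. Lmo2, a partner of Gata1 and Tal1, was the only one of the 12 erythroid transcription factor genes with a log2 ratio over 2 and at least 50 UMIs, at 2.41.

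None of the genes of the progenitor and receptor list with at least 50 UMIs had a ratio above 0. Cpa3, a protease gene of that list that mast cells also express, had 79 UMIs, all of them in KO 4 (458 CPM there), and 2 erythroid cells carried at least 3 mast cell markers. The list of dividing cells had 42 UMIs in all, 21 of them from Mki67, a protein of cycling cells, which was detected in 5.43% of cells. The embryonic globins Hba-x, Hbb-y and Hbb-bh1 had 0 UMIs. The minor alpha-like globins Hbq1a and Hbq1b, of the theta type, had 12 and 10 UMIs. Cygb, cytoglobin, which fibroblasts make, had 260 UMIs and a ratio of -1.35.

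The cells at 50% haemoglobin or more were compared among themselves after each was thinned to 275 non-haemoglobin UMIs. Alas2 was then detected in 98% of the 204 cells, Ube2l6 in 94.6% and Tent5c in 93.1%. Car2 was detected in 55.9% and Slc4a1 in 35.3%. Over the 190 pairs of the 20 genes with the largest ratio, the median Spearman correlation across cells was 0.218. Car2 and Slc4a1 had 0.608, Car2 and Prxl2a 0.495 and Car2 and Rsad2 0.481. Alas2 had 0.42 with Ube2l6 but -0.126 with Car2 and -0.074 with Slc4a1, ranks 188 and 186 of the 190. Of the 204 cells, 103 carried at least 3 markers of another cell type, whose part in these values was not tested. Within KO 4 alone (102 cells) the Car2 and Slc4a1 value was 0.617, and over the other 6 libraries (102 cells) it was 0.612. Car2 and Rsad2 had 0.305 within KO 4 and 0.651 over the other 6 libraries. These cells share libraries and a fixed depth, and a rank correlation of sparse counts describes them only.

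Set against haemoglobin, Car2 and Slc4a1 differed more between the erythroid cells and the low-gene barcodes than Alas2 did. Per 1000 haemoglobin UMIs, Alas2 had 4.95 UMIs in the cells at 50% or more, 4.64 in those at 20% to 50% and 4.5 in the low-gene barcodes. Car2 had 2.54 per 1000 haemoglobin UMIs at 50% or more, 0.961 at 20% to 50% and 0.635 in the low-gene barcodes. Slc4a1 had 0.661 at 50% or more, 0.225 at 20% to 50% and 0.131 in the low-gene barcodes. In each of the 7 libraries Car2 was higher in the cells at 50% or more than in the low-gene barcodes, with 1.61, 5.07, 4.3 and 2.19 against 0.444, 1.03, 0.342 and 0.54 in KO 1 to KO 4. The flox values were 1.31, 5.71 and 3.1 in the cells at 50% or more against 0.351, 0.784 and 0.941 in the low-gene barcodes of flox 1 to flox 3. Slc4a1 was higher in the cells at 50% or more in 6 of the 7 libraries, whereas in KO 3 it had 0.159 at 50% or more against 0.205 in the low-gene barcodes. The limit of 200 genes separates these sets, so the difference is described without a test.

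The make-up of the haemoglobin transcripts was compared between erythroid and other cells within libraries, since the rule used only their sum. Hbb-bs exceeded Hbb-bt in both. The ratio of Hbb-bs to Hbb-bt UMIs was 2.84, 2.81, 2.38 and 3.14 in erythroid cells of KO 1 to KO 4, against 4.1, 4.23, 7.02 and 5.98 in their other cells. In flox 1 to flox 3 it was 3.34, 2.84 and 2.61 in erythroid cells, against 7.86, 2.89 and 3.85 in other cells. Erythroid cells thus had the lower ratio in all 7 libraries, and in flox 2 the ratios of both sets nearly met.

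On the log2 scale, Hbb-bt over Hbb-bs was higher in erythroid cells by 0.64 ± 0.41 (SD, n = 6 libraries), in 6 of 6, with p = 0.0312 by an exact two-sided sign-flip test, the smallest value 6 libraries allow. After Benjamini-Hochberg adjustment over 3 ratios the exact test gave 0.0625, so it missed 0.05. The low-gene barcodes lay below the erythroid cells for Hbb-bt over Hbb-bs in all 6 libraries, by a mean log2 difference of -0.55.

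Hba-a2 over Hba-a1 ranged from 1.46 to 1.77 in erythroid cells and from 1.56 to 2.35 in other cells over the 7 libraries. Its log2 value differed by -0.19 ± 0.16 (SD, n = 6) between erythroid and other cells, and was lower in 5 of 6 libraries (exact sign-flip p = 0.0625, adjusted 0.0625). The sum of the beta genes over the sum of the alpha genes differed by -0.08 ± 0.08 and was lower in 5 of 6 libraries (exact sign-flip p = 0.0625, adjusted 0.0625). Against other cells under 1% haemoglobin, the log2 difference of Hba-a2 over Hba-a1 was -0.42 with an unadjusted exact p of 0.0312. The near-identity of the alpha pair applies to these values.

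**Figure D4:**
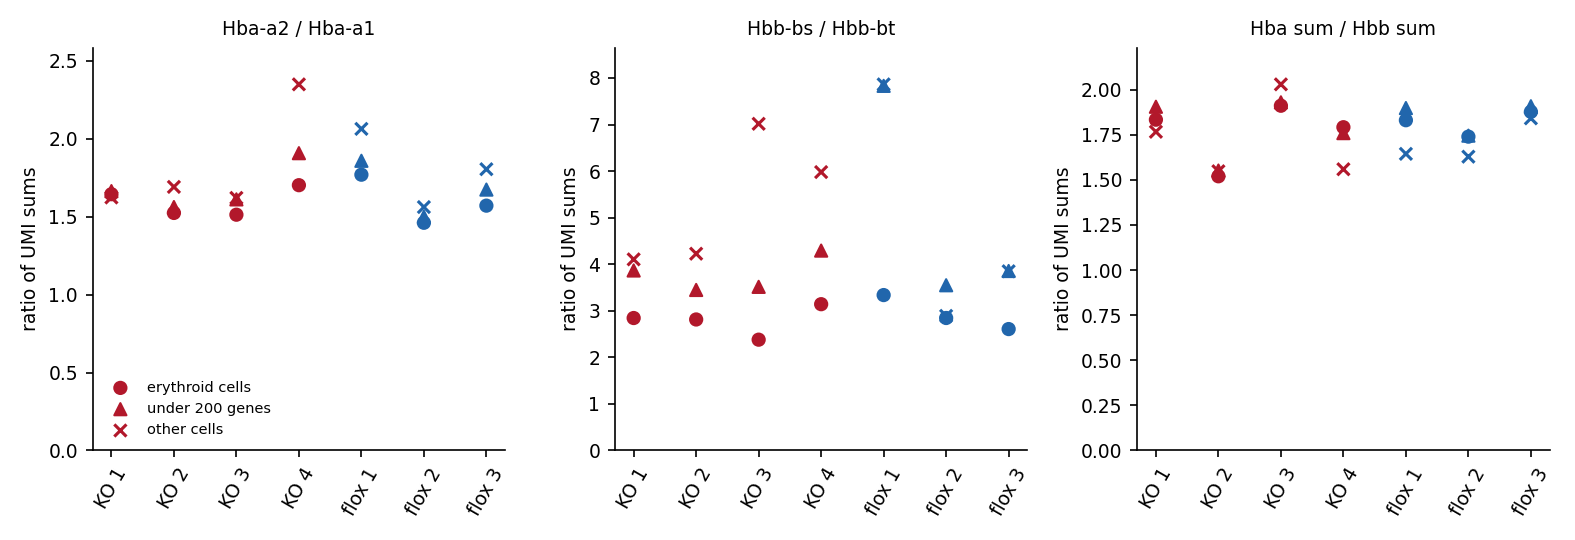
Ratios of summed UMIs between haemoglobin genes in each KO and flox library, for erythroid cells (circles), low-gene barcodes (triangles) and other cells (crosses). In the middle panel the circles lie between 2.38 and 3.34, below the cross of the same library in all 7 libraries.

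Haemoglobin transcripts were also present in the other cells. Over all of them, the 4 genes took 76.5, 132.5, 63.9 and 1142 of every 1000000 UMIs (haemoglobin CPM, here over all UMIs) in KO 1 to KO 4, against 164, 133 and 185 in flox 1 to flox 3. At least 1 haemoglobin UMI was found in 8.79%, 9.65%, 2.05% and 85.7% of other cells of KO 1 to KO 4, against 36.6%, 7.33% and 27.6% in flox 1 to flox 3. KO 4 stood apart in both measures. With cells thinned to 1000 UMIs the shares were 2.04%, 2.26%, 0.511% and 49.4% in KO 1 to KO 4, against 11.6%, 1.83% and 9.34% in flox 1 to flox 3, and KO 4 was again the highest.

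A few cells carried much of this amount. Over the 7 libraries, 83 other cells had between 1% and 20% haemoglobin, and they held 76.7%, 83.8%, 92.3% and 41.6% of the other cells' haemoglobin UMIs in KO 1 to KO 4, against 26.5%, 85.5% and 44.2% in flox 1 to flox 3. In the cells under 1%, 17.9, 21.5, 4.9 and 671 haemoglobin CPM remained in KO 1 to KO 4, against 121, 19.3 and 103 in flox 1 to flox 3.

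Cells were assigned to a type by at least 3 of its markers. Among smooth muscle cells, fibroblasts, endothelial cells and macrophages under 1%, libraries differed more than these types of a library did. Types of few cells lay further apart, as in KO 2 with 13.9 haemoglobin CPM in 32 mast cells and 240.5 in 5 Schwann cells. In KO 4, smooth muscle cells had 657 haemoglobin CPM, fibroblasts 651, endothelial cells 730, macrophages 745, T and NK cells 715, mast cells 763 and neutrophils, the highest named type, 918. In flox 1, smooth muscle cells had 127, fibroblasts 117, endothelial cells 137 and macrophages 114. In KO 3 the same 4 types had 5.75, 4.09, 1.72 and 4.36, close to the amount of single UMIs. Endothelial cells of small arteries are known to make some alpha globin, and none of these cell types is known to transcribe globin genes at a level near that of red cells.

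In all 7 libraries, cells under 1% in the deepest of 4 equal bins held more haemoglobin UMIs each than those in the shallowest. Their haemoglobin CPM was lower, and it fell at each step in KO 1, KO 2, KO 4 and flox 1. From the shallowest to the deepest of 4 equal bins of the KO 4 cells under 1%, the mean number of haemoglobin UMIs was 1.18, 2.19, 3.19 and 5.04 per cell, and the level was 941, 791, 687 and 584 CPM. In flox 1 the 4 bins had 0.123, 0.344, 0.616 and 1.1 UMIs per cell, and 179, 144, 121 and 111 CPM. Whether these UMIs come from RNA free in the suspension was not tested.

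**Figure D5:**
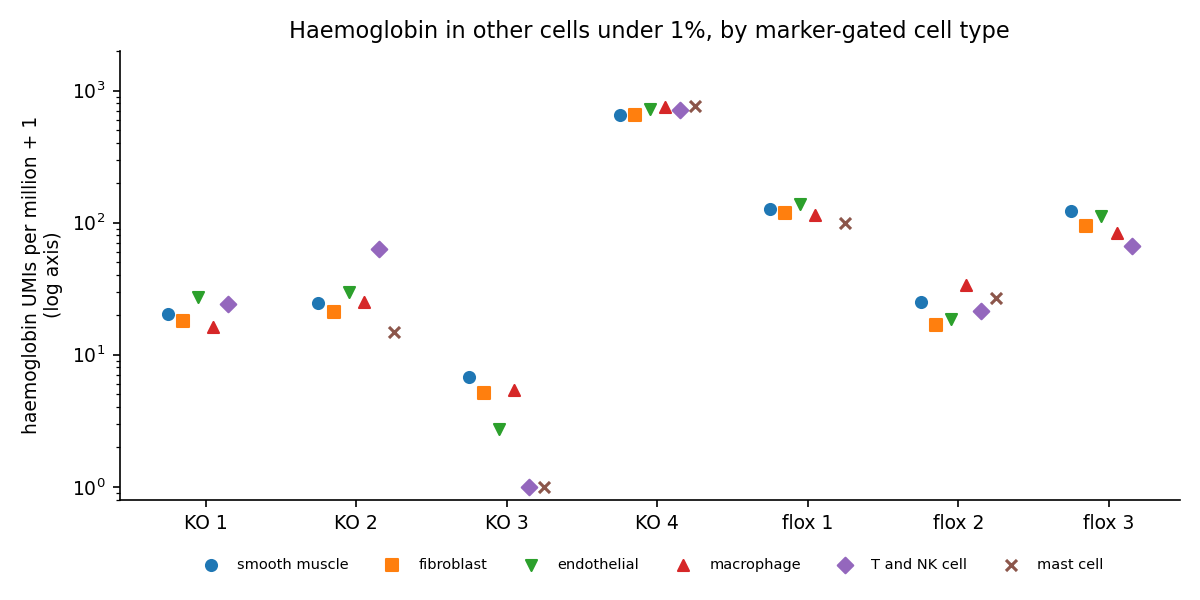
Haemoglobin UMIs per 1000000 UMIs plus 1, on a log axis, in other cells under 1% haemoglobin, for 6 marker-assigned cell types in each library, KO left of flox, where a type had at least 20 cells. In KO 4 the 6 types lie between 651 and 763.

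Libraries with a larger erythroid share by the rule tended to have more haemoglobin in other cells. Over the 7 libraries, the share and log2 of the haemoglobin CPM of other cells plus 1 had Pearson's r = 0.958 (exact permutation p = 0.00198, adjusted 0.00397 over 4 coefficients of 2 relations) and Spearman's rho = 0.893 (exact permutation p = 0.0123, adjusted 0.0123). With the background of cells under 1%, r was 0.838 (exact permutation p = 0.00159, adjusted 0.00397) and rho 0.929 (exact permutation p = 0.00675, adjusted 0.00899). Without KO 4 and KO 3, the libraries farthest from the median share, r was 0.629 over 5 libraries (exact permutation p = 0.283), and with cells under 1% it was 0.736 (exact permutation p = 0.0667). Spearman's rho over these 5 libraries was 0.7, and 0.8 with cells under 1%. With both libraries left out, r thus did not pass 0.05. Without KO 4 alone r was 0.828 (exact permutation p = 0.0222), and without KO 3 alone it was 0.963 (exact permutation p = 0.0139). Both measures were taken from the same suspension of each library. The share depends on the limit of 200 genes. Without that limit it was 1.54%, 1.61%, 0.235% and 8.57% in KO 1 to KO 4, and 0.531%, 1.18% and 1.84% in flox 1 to flox 3. By these shares flox 1 lay below KO 1 and KO 2. Its cells under 1% nevertheless had 121 haemoglobin CPM, against 17.9 and 21.5 in KO 1 and KO 2. The correlation was not tested with these shares.

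The erythroid shares of the genotypes overlapped. The share averaged 0.58% ± 0.835 in KO libraries (SD, n = 4) and 0.281% ± 0.109 in flox libraries (SD, n = 3), a difference of 0.299 percentage points with p = 0.914 by an exact two-sided permutation test over 35 splits, whose smallest p is 0.0286. Without KO 4 the difference was -0.116 (exact permutation p = 0.4), so its direction rested on that library. The background averaged 354 ± 526 haemoglobin CPM in KO libraries (SD, n = 4) and 161 ± 26.3 in flox libraries (SD, n = 3), with a difference of 0.05 on the log2 scale (exact permutation p = 1.0). Without KO 4 the log2 difference was -0.87 (exact permutation p = 0.1, the smallest it allows for 3 libraries against 3 being 0.1). Among cells under 1% it was -0.82 (exact permutation p = 0.657).

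The make-up of haemoglobin in erythroid cells was also compared between genotypes. The log2 of Hbb-bt over Hbb-bs averaged -1.55 ± 0.09 in KO libraries and -1.54 ± 0.18 in flox libraries (SD, n = 3 each, KO 3 left out; exact permutation p = 1.0, adjusted 1.0). The log2 of Hba-a2 over Hba-a1 averaged 0.7 ± 0.08 in KO libraries and 0.67 ± 0.14 in flox libraries (exact permutation p = 0.8, adjusted 1.0). Beta over alpha averaged -0.77 ± 0.15 in KO libraries and -0.86 ± 0.06 in flox libraries (exact permutation p = 0.6, adjusted 1.0). The smallest p that 3 against 3 libraries allow is 0.1, so this design could not pass 0.05.

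The other genes of erythroid cells were tested on UMI sums without the 4 haemoglobin genes, with 3 KO libraries (KO 1, KO 2 and KO 4) against 3 flox libraries. By edgeR's quasi-likelihood test, 0 of 395 genes passed an adjusted p of 0.05 (0.0%), 27 had an unadjusted p under 0.05, and the smallest adjusted p was 0.41. DESeq2 also called 0 genes. The 10 genes with the smallest p, none of which passed, were Lyz2, Itgbl1, Peli1, Pcolce2, Dcn, Ccn1, Psap, Atf3, Glul and Selenop.

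Lyz2, the lysozyme of macrophages and monocytes, had 4322, 8999 and 1802 CPM (here per 1000000 UMIs of the tested genes, after scaling by edgeR) in erythroid cells of KO 1, KO 2 and KO 4, against 774, 0 and 0 in those of flox 1 to flox 3. All 3 KO values were higher, at a log2 fold change of 4.35 ± 1.04 (SE; edgeR adjusted p = 0.41). Leaving out 1 library at a time gave 3.71 to 10.2 (edgeR adjusted p 0.23 to 0.545), with 10.2 without flox 1, the one flox library with Lyz2 UMIs, so that value depends on the prior count. The summed macrophage markers of these cells stood at 2734, 4314 and 1420 CPM of non-haemoglobin UMIs in the same KO libraries, against 617, 205 and 121 in the flox libraries, and their part in the Lyz2 difference was not tested. Dcn, the fibroblast proteoglycan, had 17800, 4726 and 16340 CPM in the KO libraries, against 4310, 4087 and 4118 in the flox libraries (log2 fold change 1.64 ± 0.49, SE; edgeR adjusted p = 0.454). Peli1, a ubiquitin ligase of immune signalling, had 152.5, 259 and 287 CPM in the KO libraries, against 1105, 936.5 and 1029 in the flox libraries (log2 fold change -2.05 ± 0.56, SE; edgeR adjusted p = 0.426). Peli1 was the only one of the 10 with a negative fold change.

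The fitted fold changes of the red cell lists and of the fibroblast list pointed opposite ways. Of the tested genes, 13 of 13 for reticulocyte maturation, 8 of 8 for metabolism, 7 of 7 for the membrane and 4 of 4 for haem synthesis had a negative fold change, with medians of -0.73, -0.67, -0.61 and -0.82, and 7 of 7 fibroblast markers had a positive one, with a median of 1.62. The median over all 395 genes was 0.08, and no gene of these lists passed. The summed fibroblast markers in erythroid cells were at 44980, 6455 and 22710 CPM of non-haemoglobin UMIs in KO 1, KO 2 and KO 4, against 12430, 8069 and 8777 in flox 1 to flox 3. With cells at 50% or more alone, a choice made after these values were seen, 127 genes were tested, 0 passed with 1 at an unadjusted p under 0.05, and 4 of 4 fibroblast markers had a negative fold change, with a median of -0.78. The medians of the red cell lists then lay between -0.18 and -0.02, beside -0.09 over the 127 genes. Without KO 1, the median was 0.21 for the fibroblast list (5 positive, 2 negative) and -0.5 for reticulocyte maturation. The part of fibroblast RNA in the differences between genotypes was not tested further.

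In other cells, edgeR called 0 of 17159 genes between genotypes (0.0%), with 634 at an unadjusted p under 0.05, and DESeq2 called 10 of 15044 (0.0665%). Alas2 had 0.354, 0.726, 0.183 and 3.855 CPM in KO 1 to KO 4, against 0.444, 0.707 and 0.599 in flox 1 to flox 3 (log2 fold change 1.08 ± 0.96, SE; edgeR adjusted p = 0.973). The log2 fold changes of the 4 haemoglobin genes were 0.84 to 1.25, with the same adjusted p of 0.973, and they turned to values from -0.84 to -0.69 when KO 4 was left out. Alas2 then had -0.46.

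The receptors and enzymes that clear haemoglobin and haem were measured in the same other cells. None of the 14 listed genes passed in edgeR, with 9 fold changes positive and 5 negative and a median of 0.07, beside 0.01 over all genes tested. Hp, haptoglobin, which binds free haemoglobin in plasma, had 5.39, 7.45, 6.33 and 14.3 CPM in KO 1 to KO 4, against 1.96, 2.06 and 2.65 in flox 1 to flox 3. The groups did not overlap, and the log2 fold change was 1.92 ± 0.36 (SE; edgeR adjusted p = 0.973, DESeq2 adjusted p = 0.000983). Hp is thus a call of DESeq2 alone. Adipocytes and neutrophils are known to make haptoglobin. In the same edgeR fit, all 7 tested adipocyte markers had a positive fold change (median 2.79), as did all 8 tested neutrophil markers (median 1.19) and all 10 macrophage markers (median 0.50), and none of these passed. This was not particular to these lists. Mast cell markers had a median of 1.57, T and NK cell markers 1.31 and endothelial markers 0.96. B and plasma cell markers had 0.89 and monocyte and dendritic markers 0.78. The median was 0.003 for fibroblast, -0.05 for smooth muscle, -0.21 for platelet and megakaryocyte and -0.49 for Schwann cell markers. The summed adipocyte markers of other cells ran between 87.9 and 431 CPM in KO libraries, against 63.0 and 150.3 in flox libraries, and the neutrophil markers between 20.7 and 259.8 CPM in KO libraries, against 18.6 and 40.5 in flox libraries. Their part in the Hp difference was not tested.

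Blvrb, a biliverdin reductase that acts on haem breakdown products, had a log2 fold change of 0.3 ± 0.17 (SE; edgeR adjusted p = 0.973). Flvcr1, a haem exporter, had -0.25 ± 0.14, and Blvra, the other biliverdin reductase, had 0.26 ± 0.15, with the same adjusted p by edgeR. Hmox1, haem oxygenase 1, which opens the haem ring and is induced by haem, had 162, 515, 658 and 496 CPM in KO 1 to KO 4, against 482, 470 and 705 in flox 1 to flox 3. Cd163, the macrophage receptor for haptoglobin-bound haemoglobin, had 23.4, 53.4, 79.6 and 60.9 CPM in KO 1 to KO 4, against 81.9, 81.8 and 15.1 in flox 1 to flox 3. The groups overlapped for both, and KO 4, with the most haemoglobin in its cells, was within the range of the flox libraries for both. These levels are sums over all other cells, whose make-up differed between libraries. By markers, 649 of 7160 other cells were macrophages in KO 4 and 152 of 5501 in flox 3. Smooth muscle cells numbered 377 in KO 4 and 2130 in flox 3. A change in Hmox1 or Cd163 within a cell type was not tested.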

How the data were processed

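Per the labels, viability was read with Calcein-AM and Draq7, and cells of digested aorta were captured by BD Rhapsody. The deposited matrices hold raw UMI counts for 31253 genes per barcode and library. The submitters' processing notes list STARsolo 2.7.10a, CASAVA 1.8, Seurat and the build mm10. Which annotation, strand setting and barcode filter the authors used is not given in the sources used here.

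The members and gene lists were chosen with earlier results of these data known. Groups follow the genotype label. The title of flox 2 gives a replicate number other than the one in its name. No label says that libraries come from separate animals, so the spread behind each p-value may be technical. Doublets were marked with Scrublet in scanpy 1.11.5 (expected rate 0.06), which marked 0.869% to 2.07% of passing cells per library, and were kept in the values reported.

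UMI counts were summed per library over erythroid cells and over other cells, and libraries with at least 20 erythroid cells entered values of these cells. The sums were tested with edgeR 4.0.16 (TMM, filterByExpr, quasi-likelihood) in R 4.3.3, on genotype alone, and p-values were adjusted by Benjamini-Hochberg over all tested genes with a threshold of 0.05. DESeq2 1.42.0 with its own filter was an alternative. These steps were tested on simulated counts. Single values were compared by exact permutation or sign-flip over libraries with scipy 1.17.1. Fold changes are KO over flox.

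Named genes were the 5 markers, up to 6 genes with most UMIs per list, the 20 largest ratios among genes with at least 50 UMIs, the 10 with most UMIs, the 10 with the smallest p between genotypes in erythroid cells, and up to 4 clearance genes with the smallest p. Predicted and mitochondrially encoded genes were not named. Any other gene named, such as the scarce haem enzymes and precursor genes, Hmox1 and Cd163, was chosen for its role after its values were seen. Some genes that this rule names are not reported here.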

Additional observations from a re-analysis of the deposited data

Results flagged for a closer look

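In 9 of 13 groups of 4 KO libraries examined, KO 4 lay farther from the other 3 libraries than Dixon's 95% critical value for 4 samples allows, in each case as the highest. Chance flags about 1 in 20 groups, and these 9 measures all follow haemoglobin or Alas2, so they are not independent. Groups of 3 flox libraries are too small for this test.

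Erythroid cells made up 1.82% of passing cells in KO 4, and the next highest KO library had 0.246%. Haemoglobin took 1142 CPM in its other cells (next 132.5) and 671 CPM in its other cells under 1% haemoglobin (next 21.5). At least 1 haemoglobin UMI was found in 85.7% of its other cells (next 9.65%). By the CPM of edgeR in other cells, KO 4 had 200 for Hba-a1 (next 30.8), 469.8 for Hba-a2 (next 52.1), 368 for Hbb-bs (next 43.3), 61.6 for Hbb-bt (next 10.2) and 3.855 for Alas2 (next 0.726).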

How the results depend on the processing

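The replicate numbers did not pair the libraries: deviations of same-numbered libraries correlated at 0.188, -0.04 and 0.136 in other cells and at 0.138 and 0.058 in erythroid cells. With the numbers as a replicate block, which leaves out KO 4 (in erythroid cells KO 3 and flox 3 as well), the difference in erythroid share was -0.116 and that in log2 background -0.872, edgeR called 5 genes in other cells and 4 in erythroid cells, and Alas2, Hba-a1, Hba-a2, Hbb-bs and Hbb-bt in other cells had log2 fold changes of -0.525, -0.718, -0.854, -0.828 and -0.931. Lyz2 in erythroid cells passed under the block (4.27) and without a filter on low counts (4.6).

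Leaving out 1 library at a time moved the share difference between -0.116 and 0.481 and the background difference between -0.872 and 0.508, with the lowest value in both without KO 4. The same fits gave 0 to 5 calls in other cells, 5 of them without KO 4, and 0 to 2 in erythroid cells, 2 of them without flox 3. The fold changes in other cells ranged from -0.464 to 1.46 for Alas2, -0.688 to 1.21 for Hba-a1, -0.82 to 1.5 for Hba-a2, -0.747 to 1.6 for Hbb-bs and -0.843 to 1.21 for Hbb-bt. The higher Hbb-bt over Hbb-bs of erythroid cells stayed between 0.526 and 0.769, with an exact p of 0.0625, the smallest that 5 libraries allow. Between genotypes, Hba-a2 over Hba-a1 ranged from -0.0399 to 0.0984, Hbb-bt over Hbb-bs from -0.105 to 0.073 and beta over alpha from 0.00186 to 0.137. The correlation of share and background ranged from 0.828 to 0.974.

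The background difference was -0.0472 without cells marked as doublets and -0.821 in cells under 1%. Hba-a2 over Hba-a1 in erythroid against other cells was -0.422 against cells under 1%. With erythroid cells of at least 50% haemoglobin, Hbb-bt over Hbb-bs between genotypes was 0.0183 and Dcn had a fold change of -0.123. DESeq2 called 10 genes in other cells, Hp among them (1.92), and edgeR without a filter on low counts called 6 in erythroid cells. The cause of these changes was not tested. Of 220 values for single genes, 206 kept their direction and side of the threshold. Depth also limits the erythroid cells, with a median of 557.5 non-haemoglobin UMIs per cell.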
